A study of Mus musculus with 6 samples.

Results

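RNA 5-methylcytosine (m5C) is laid down by methyltransferases, the writers, and is bound by reader proteins, of which Ybx1 is one. Described here are 10 genes of this machinery in mouse cortex at E18.5, namely the 6 methyltransferase genes Nsun2, Nsun3, Nsun4, Nsun5, Nsun6 and Trdmt1, the reader gene Alyref, and the 3 dioxygenase genes Tet1, Tet2 and Tet3. They were chosen by name and function from the 17348 genes of the deposited table, and each of the 10 symbols was found in exactly 1 row. mRNA from the cortices of Ybx1 cKO embryos and of control littermates was sequenced as 6 libraries, 3 for each group. In the cKO embryos the 3′ exons of Ybx1, from the third onward, were floxed and removed with Nestin-Cre, which acts in neural progenitors and the cells that descend from them, so that blood, vessels and microglia of the same tissue keep the gene. The floxed allele was made in C57BL/6J eggs. The control libraries are labelled WT, while the study elsewhere describes its controls as Ybx1 fl/fl without Cre, so that a control for Nestin-Cre alone is not among these libraries. The sex of the embryos and the number of embryos behind each library are not given in the sources used here.

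The writers differ in the RNA they act on. Nsun2 methylates many tRNAs as well as mRNAs, and Nsun6 methylates a few tRNAs and a separate set of mRNA sites. Nsun5 acts on rRNA of the large ribosomal subunit, Trdmt1 (also known as Dnmt2) on tRNAs, and Nsun3 and Nsun4 act inside mitochondria, on a tRNA and on rRNA of the small subunit respectively. Alyref is an adaptor of nuclear mRNA export that binds m5C in the nucleus, whereas Ybx1 reads it mainly in the cytoplasm. The Tet enzymes oxidise 5-methylcytosine, best known in DNA and also reported in RNA.

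The targeted gene was examined first. Ybx1 was at 1015, 1297 and 956 CPM in control replicates 1, 2 and 3 and at 24.0, 24.8 and 24.9 CPM in the cKO replicates (CPM, estimated counts scaled to the same TMM-adjusted library total). Its log2 fold change was -5.47 with a standard error of 0.164, and edgeR's quasi-likelihood test gave an adjusted p = 6.95e-07 (Benjamini-Hochberg). The groups were far apart. Libraries held 15091951 to 16885451 estimated counts, where 3 counts correspond to 0.178 to 0.199 CPM. Control replicate 2 stood apart from the other 5 libraries. Its median Spearman correlation with them was 0.977, against 0.992 to 0.994 for the rest, and it held more reads of short and fewer reads of long genes. The values below are therefore also given without it. The groups also differed in the 4 Y-linked genes tested, at 20.6 CPM or more in every control library and at 1.40 CPM or less in every cKO library, so that for any gene an effect of sex and one of genotype cannot be told apart here. Summed markers of cortical projection neurons were at 4442 to 4556 CPM in control and at 3774 to 4193 CPM in cKO libraries (8 genes, groups not overlapping). Tubb3 and Neurod6 made up most of that sum in every library, no single marker of the 8 was lower in every cKO library, and Slc17a7 was higher in all of them (51.6 to 55.5 against 30.7 to 34.1 CPM). Progenitor markers were at 933 to 1040 and 962 to 986 CPM (9 genes). Of the other cell types, 4 meningeal markers summed to 5.45 to 6.32 CPM in control and 7.60 to 8.85 CPM in cKO libraries. Col1a2 made up most of that sum in every library (4.08 to 5.09 against 5.24 to 6.62 CPM). Col1a1 and Dcn overlapped between the groups, whereas Col1a2 and Lum did not. Dcn was as low as 0.117 CPM, and only 2 of the 4 markers were abundant enough to be tested. The sums overlapped between the groups for blood, microglia, endothelial cells and pericytes, choroid plexus, striatum, interneurons, astrocytes and the oligodendrocyte lineage, and of the 3 choroid plexus markers 2 stayed under 0.2 CPM in every library. The part of cell composition in the values below was not tested, and in bulk tissue fewer cells of a type and less RNA per cell cannot be told apart.

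None of the 10 genes passed the test. All 10 were abundant enough to be tested, 0 had an adjusted p under 0.05 and 0 an unadjusted p under 0.05 by edgeR's quasi-likelihood test, and the same 2 counts were 0 by DESeq2 and by limma on TPM. Over all 13570 genes tested, 0.0737% passed the adjusted threshold (0.0221% higher and 0.0516% lower in cKO) and 6.62% the unadjusted one (3.14% higher and 3.49% lower). Log2 fold changes of the 10 genes ran from -0.26 for Alyref to 0.23 for Tet2, with a median of 0.06, beside a median of 0.003 over all genes tested. Without control replicate 2 the 2 medians were -0.03 and 0.005, and the log2 fold changes of Nsun2, Nsun3 and Nsun4 were 0.06, 0.05 and 0.19. With all 6 libraries, the 95% intervals of the 10 fold changes, each taken on its own, lay between 0.674-fold and 1.64-fold. A change of 2-fold in either direction was thus outside the interval of every one of the 10 genes, while changes of up to 1.64-fold for Tet1 and Tet2, or down to 0.674-fold for Alyref, were not excluded.

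**Figure D1:**
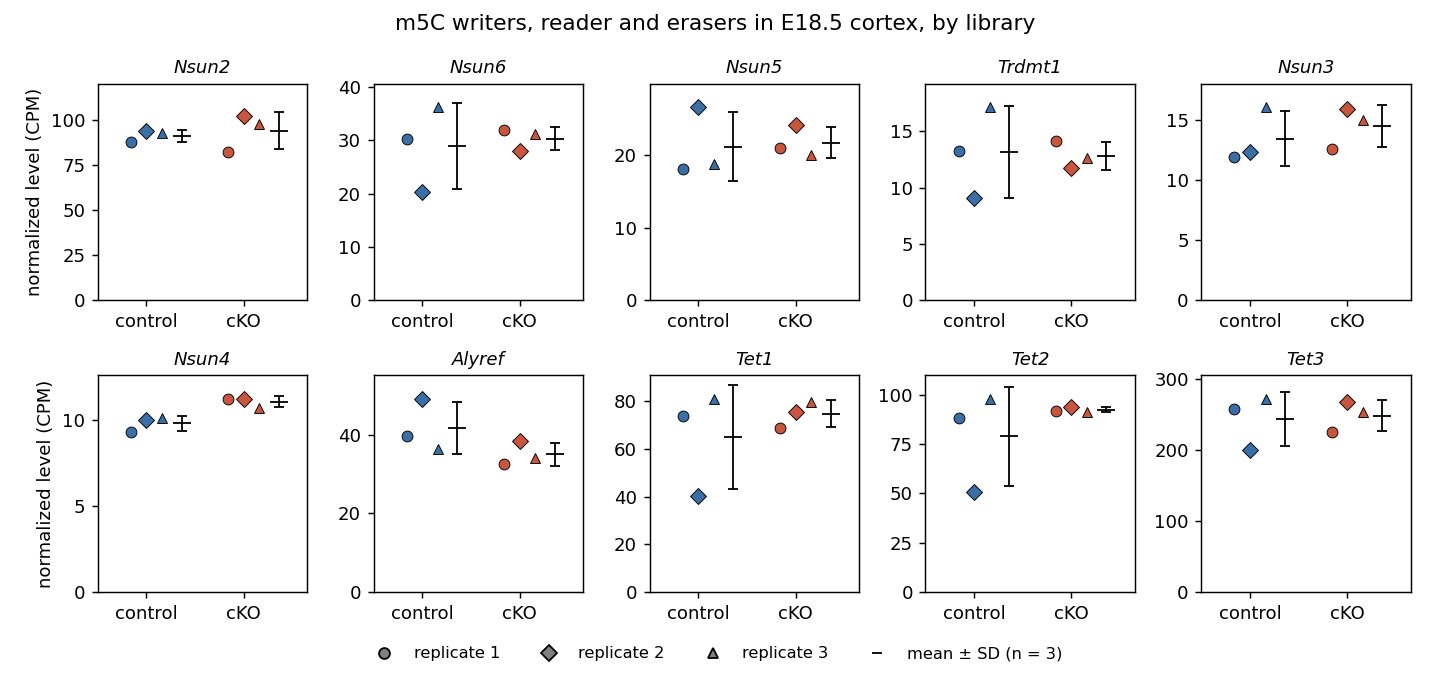
Normalized level in CPM (y axis, starting at 0) of the 10 genes in the 3 control and 3 cKO libraries, with the replicate shown by the symbol and the mean ± SD (n = 3) beside each group. Control replicate 2 (blue diamond) is the lowest of the 6 libraries for Nsun6, Trdmt1, Tet1, Tet2 and Tet3 and the highest for Nsun5 and Alyref. Over all genes tested it is the lowest for 33.9% and the highest for 33.6%.

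The mRNA writers Nsun2 and Nsun6 were compared next, since both together account for most m5C in mRNA and the Ybx1 protein binds that mark. Nsun2 (Entrez 28114, on chromosome 13 of GRCm38 from 69533746 to 69635780, plus strand) was at 87.4, 93.6 and 92.6 CPM in control replicates 1, 2 and 3 and at 82.3, 101.8 and 97.4 CPM in the cKO replicates. The lowest and the highest of these values both belonged to cKO libraries, and the groups overlapped. The log2 fold change was 0.04 (95% interval -0.21 to 0.30, adjusted p = 0.954 by edgeR's quasi-likelihood test). Among the 10 genes Nsun2 had the smallest gene-wise biological coefficient of variation, 0.112, and 16.9% of all genes tested had a lower one. Tent4a, a gene on the opposite strand that shares 165 exonic bases with Nsun2 in GENCODE M21, was at 84.5 ± 2.81 CPM in control and 97.0 ± 3.71 CPM in cKO (SD, n = 3 each; log2 fold change 0.20, adjusted p = 0.792). Whether the authors' counting used strand is not given in the sources used here, so reads in the shared bases cannot be assigned with certainty. The same holds for 469 exonic bases that Nsun2 shares with Gm17108 and 43 that Tet2 shares with Gm42567, both annotated on the opposite strand and not analysed here.

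Nsun6 (Entrez 74455, on chromosome 2 from 14995131 to 15055069, minus strand) was at 30.2, 20.3 and 36.3 CPM in the control and at 31.9, 27.9 and 31.2 CPM in the cKO replicates. Control replicates 2 and 3 were the lowest and the highest of all libraries and enclosed the 3 cKO values. Its log2 fold change was 0.07 with all 6 libraries (95% interval -0.37 to 0.51, adjusted p = 0.954) and -0.13 without control replicate 2 (-0.38 to 0.12, adjusted p = 0.686). It was -0.01 with all 6 libraries after a correction for implied length and GC. The sign was thus not stable, and none of these values was distinguishable from 0. On the length-scaled TPM of the authors, Nsun2 exceeded Nsun6 in all 6 libraries, by 3.46 to 4.95 times in 5 of them and by 6.73 times in control replicate 2. The ratio was 4.79 ± 1.72 in control and 4.33 ± 0.560 in cKO (SD, n = 3 each), and the cKO values lay inside the control range. Its size depends on the length used, which for Nsun6 was 5570 bp by counts and FPKM but 3149 bp for the longest annotated transcript. The summed TPM of both mRNA writers was 59.7, 52.1 and 68.4 in control and 61.6, 72.1 and 71.6 in cKO replicates, and the groups overlapped.

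Nsun5 and Trdmt1, the writers for cytoplasmic rRNA and tRNA, moved in opposite ways in control replicate 2. Nsun5 (Entrez 100609, on chromosome 5 from 135369953 to 135376805, plus strand) was at 18.1, 26.7 and 18.8 CPM in control and at 21.0, 24.2 and 20.1 CPM in cKO replicates. Control replicates 1 and 3 were lower than every cKO library and control replicate 2 was higher than all of them. Its log2 fold change was 0.04 with all libraries (95% interval -0.36 to 0.43, adjusted p = 0.973) and 0.24 without control replicate 2 (-0.02 to 0.50, adjusted p = 0.462). Nsun5 shares 665 exonic bases with Pom121, a nuclear pore gene on the opposite strand, and the estimated counts of both genes held fractions of reads, so part of the reads were divided between features. Pom121 was at 102 ± 7.45 CPM in control and 112 ± 4.99 CPM in cKO (SD, n = 3 each; log2 fold change 0.14, adjusted p = 0.855).

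Trdmt1 (Entrez 13434, on chromosome 2 from 13509014 to 13544668, minus strand) was at 13.2, 9.08 and 17.2 CPM in control and at 14.2, 11.7 and 12.6 CPM in cKO replicates. As for Nsun6, the cKO libraries lay between control replicates 2 and 3. Its log2 fold change was -0.03 (95% interval -0.54 to 0.47, adjusted p = 0.985), or -0.24 without control replicate 2 (-0.58 to 0.09, adjusted p = 0.565). Trdmt1 was the least abundant of the 10 genes per length.

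The mitochondrial writers Nsun3 and Nsun4 were low in both groups. Nsun3 (Entrez 106338, on chromosome 16 from 62732444 to 62786818, minus strand) was at 11.9, 12.4 and 16.1 CPM in control and at 12.6, 15.9 and 15.01 CPM in cKO replicates, and the groups overlapped (log2 fold change 0.11, 95% interval -0.27 to 0.49, adjusted p = 0.919). Nsun4 (Entrez 72181, on chromosome 4 from 116032842 to 116053876, minus strand) was at 9.34, 10.01 and 10.1 CPM in control and at 11.3, 11.3 and 10.7 CPM in cKO replicates. It was the only one of the 10 genes with every cKO library above every control library, an arrangement in which the groups did not overlap for 14.3% of all genes tested (7.35% with cKO higher and 6.93% with cKO lower). On the TPM scale it was likewise the only one, when 21.6% of all genes did not overlap (19.2% with cKO higher and 2.43% with cKO lower). A single gene in 10 is thus near the background share. The log2 fold change of Nsun4 was 0.17 (95% interval -0.13 to 0.48, adjusted p = 0.857 by edgeR's quasi-likelihood test), and the two-sided exact permutation test gave p = 0.1, the smallest that 3 libraries against 3 allow. Its control values had a CV of 4.36% and its cKO values one of 2.81%, both below the 7.76% that counting error alone gives at its mean count. Mterf4, the protein partner with which Nsun4 works in mitochondria, was at 13.6 ± 1.31 CPM in control and 12.4 ± 1.05 CPM in cKO (SD, n = 3 each; log2 fold change -0.13, adjusted p = 0.900).

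Alyref had the lowest unadjusted p of the 10 genes. Alyref (Entrez 21681, on chromosome 11 from 120592121 to 120598365, minus strand) was at 39.7, 49.1 and 36.4 CPM in control and at 32.4, 38.3 and 34.2 CPM in cKO replicates. Control replicate 2 was the highest, and cKO replicate 2 exceeded control replicate 3, so the groups overlapped. Its mean was 41.7 ± 6.61 CPM in control and 35.0 ± 2.99 CPM in cKO (SD, n = 3 each), a log2 fold change of -0.26 (95% interval -0.57 to 0.06, unadjusted p = 0.0976, adjusted p = 0.796 by edgeR's quasi-likelihood test). Without control replicate 2 the log2 fold change was -0.12 (95% interval -0.35 to 0.10, adjusted p = 0.681), and without control replicate 3 it was -0.35. In that last setting Alyref had an unadjusted p of 0.0343, when 14.0% of all genes tested had one under 0.05, and with the length and GC correction plus the replicate block it was 0.0166, when 14.2% did. That correction used the longest annotated transcript, which for Alyref is 3527 bp against an implied length of 825 bp. With implied lengths the log2 fold change was -0.17 (unadjusted p = 0.0815). Alyref2, a close copy of Alyref, could in principle share reads with it, but the estimated counts of both genes were whole in all 6 libraries. Alyref2 was at 8.55 ± 2.33 CPM in control and 6.81 ± 0.490 CPM in cKO (log2 fold change -0.33, adjusted p = 0.841). In control libraries the TPM of Ybx1 was 11.1 to 11.7 times that of Alyref, and in cKO libraries 0.281 to 0.319 times.

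The Tet genes were the longest of the 10, and Tet1 and Tet2 had the largest CVs between control libraries (33.7% and 31.8%), while that of Tet3 was 15.7%. Tet1 (Entrez 52463, on chromosome 10 from 62804570 to 62908996, minus strand) was at 74.1, 40.2 and 81.2 CPM in control and at 68.8, 75.8 and 79.9 CPM in cKO replicates. Tet2 (Entrez 214133, on chromosome 3 from 133463679 to 133545139, minus strand) was at 88.1, 50.4 and 98.0 CPM in control and at 91.9, 93.7 and 91.4 CPM in cKO replicates. For both genes control replicate 2 was at little more than 50% of the mean of the other 2 controls (51.7% and 54.2%). Those 2 controls enclosed all cKO values of Tet2 and 2 of the 3 of Tet1. With all 6 libraries the log2 fold change was 0.20 for Tet1 (95% interval -0.31 to 0.72, adjusted p = 0.900) and 0.23 for Tet2 (-0.25 to 0.71, adjusted p = 0.872). Without control replicate 2 these became -0.05 (-0.26 to 0.15) and -0.01 (-0.19 to 0.17), with adjusted p-values of 0.868 and 0.97, so that the narrower intervals covered changes of 0.838-fold to 1.11-fold and 0.877-fold to 1.125-fold.

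Tet3 (Entrez 194388, on chromosome 6 from 83362373 to 83459084, minus strand) had the most reads of the 10 genes. It was at 256.6, 199.6 and 271.7 CPM in control and at 224.2, 266.5 and 252.9 CPM in cKO replicates, and the groups overlapped. The log2 fold change was 0.03 (95% interval -0.29 to 0.35, adjusted p = 0.973), and -0.09 (-0.29 to 0.11, adjusted p = 0.734) without control replicate 2. Per length, Tet3 made up 57.6% to 68.6% of the summed TPM of the 3 Tet genes, Tet2 20.8% to 28.7% and Tet1 10.6% to 14.7%. The 68.6% was that of control replicate 2, and the other 5 libraries lay between 57.6% and 60.6%, controls and cKO mixed.

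**Figure D2:**
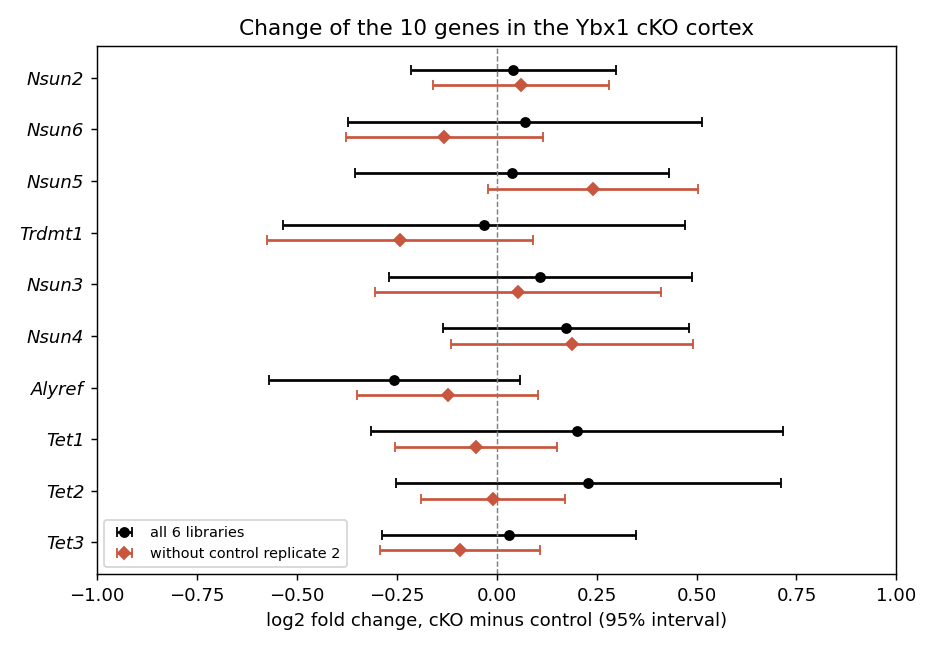
Log2 fold change between cKO and control (x axis) of the 10 genes with 95% intervals from edgeR's quasi-likelihood fit, for all 6 libraries (black circles) and without control replicate 2 (red diamonds). Every interval spans 0, and the intervals of Tet1 and Tet2 are narrower without control replicate 2.

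Levels of different genes were compared on the TPM scale, which divides by length, so the order depends on the length used. For Alyref the length implied by the deposited counts and FPKM was 825 bp, against 3527 bp for its longest annotated transcript. For Nsun6 these were 5570 and 3149 bp. In CPM, without division by length, Alyref (32.4 to 49.1 CPM) was below Nsun2 (82.3 to 101.8 CPM) in every library. Averaged over the 6 libraries, Alyref was the highest at 103 TPM (93.2 to 112 TPM), above 89% of the genes in the table. Nsun2 followed at 52.2 TPM (45.3 to 60.0 TPM) and Tet3 at 51.0 TPM (36.1 to 57.1 TPM), and each exceeded the other in 3 of the 6 libraries, so that these neighbours were not separated. Alyref was above Nsun2, and Tet3 above Tet2, with no overlap between any libraries of the pair. The middle of the order was Tet2 at 21.8 TPM, Nsun5 at 21.4 TPM and Nsun3 at 14.4 TPM. Tet2 exceeded Nsun5 in 5 of 6 libraries with overlapping ranges, and Nsun5 exceeded Nsun3 in 6 of 6. Nsun4, Nsun6 and Tet1 were at 12.3, 12.04 and 11.5 TPM, with overlapping ranges and no order kept in all libraries. Trdmt1 was the lowest at 7.21 TPM (4.46 to 9.06 TPM) and was below Tet1 in 6 of 6 libraries. Within a library the authors' FPKM values kept the same proportions between genes as TPM, so FPKM was no separate check of the order. Only the means over libraries could differ, and there Nsun5 (9.62 FPKM) and Tet2 (9.60 FPKM) changed places. On that scale Nsun5 exceeded Tet2 in 1 library only, control replicate 2 (13.05 against 5.72 FPKM).

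**Figure D3:**
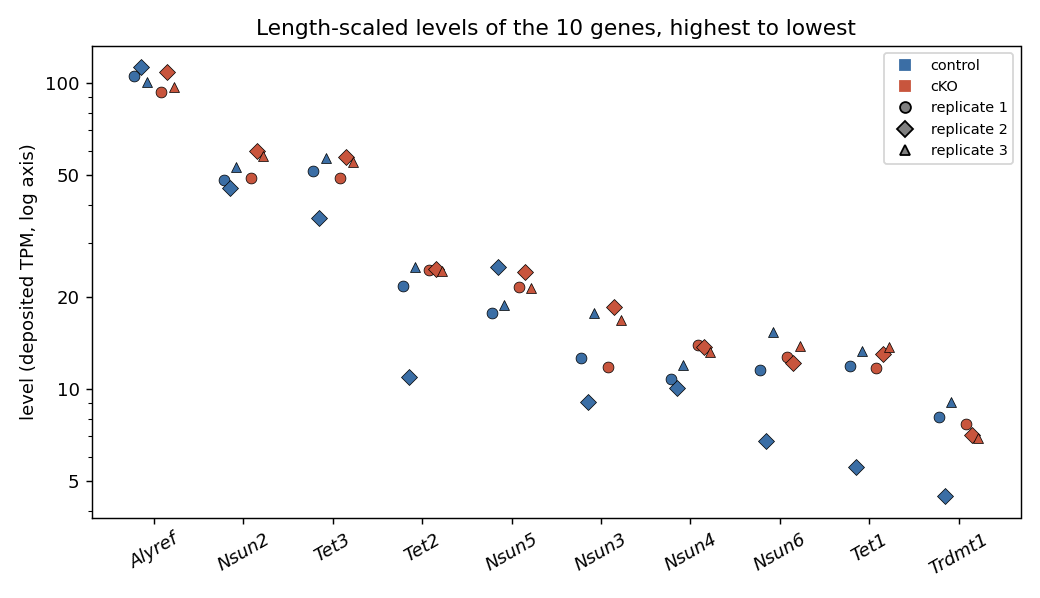
Deposited TPM (y axis, logarithmic) of the 10 genes in each control (blue) and cKO (red) library, ordered by the mean of the 6 libraries. Alyref lies above every other gene in all 6 libraries, and Nsun2 and Tet3 overlap. Control replicate 2 is shown by the blue diamonds.

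Among the 6 writers, Nsun2 supplied 42.0% to 45.0% of the summed methyltransferase TPM in every library of either group. Nsun6 supplied 6.70% to 12.2% and Trdmt1 4.43% to 7.43%, with the lowest share of both in control replicate 2. The summed TPM of the 6 writers was 112 ± 12.9 in control and 127 ± 9.79 in cKO (SD, n = 3 each), and the groups overlapped. On this scale the median log2 difference of all genes tested was itself 0.149 above 0, and TPM differences between the groups are to be read against that value. On the same scale the log2 differences of the 10 genes ran from -0.09 for Alyref to 0.42 for Tet2, with 0 adjusted p-values under 0.05 by limma.

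Since control replicate 2 stood apart, its values were set against gene length. The length used is the one implied by the deposited counts and FPKM, which ran from 825 bp for Alyref to 13844 bp for Tet1. In control replicate 2, log2 CPM relative to the mean of the other 2 controls was 0.37 for Alyref, 0.04 for Nsun4 and 0.06 for Nsun2. It was -0.72 for Nsun6, -0.75 for Trdmt1, -0.40 for Tet3, -0.88 for Tet2 and -0.95 for Tet1, which are the 5 genes with an implied length over 4000 bp. Over all genes tested the median of this ratio was 0.50 under 1000 bp, 0.29 from 1000 to 2000 bp, 0.01 from 2000 to 4000 bp, -0.27 from 4000 to 6000 bp and -0.57 above. Nsun5, at 2256 bp, was at 0.54, against a median of 0.01 in its length class. Nsun6 and Trdmt1 were likewise apart from the -0.27 of theirs, on the lower side. Nsun4 lay below the 0.29 of its class, and Nsun3, at -0.18, below the 0.01 of its own. Tet1 and Tet2 lay below and Tet3 above the -0.57 of their class. Alyref lay below the 0.50 of its class and Nsun2 slightly above its own. These classes depend on the length used. By the longest annotated transcript, Nsun6 (3149 bp) and Trdmt1 (3788 bp) fall under 4000 bp and Nsun2 (4164 bp) above it. By that measure Nsun5 (2243 bp) is the shortest of the 10 genes and Alyref is at 3527 bp. Across the 10 genes, which are not independent replicates and come from the same library, Pearson's r between log2 length and this ratio was -0.80, and across 13564 genes it was -0.60. With each library set against the mean of the other 2 of its group, r across genes was 0.338 for control replicate 1 and 0.511 for control replicate 3 (0.81 and 0.68 across the 10 genes), in the opposite direction. Those means contain control replicate 2, so these values are not independent of its own. For cKO replicates 1, 2 and 3 the r across all genes was -0.0245, 0.00599 and 0.0404, and across the 10 genes it was 0.04, -0.36 and 0.55. The coefficient of variation was larger in control than in cKO for 9 of the 10 genes, the exception being Nsun2, and for 77.1% of all genes tested. Whether the length pattern arose in the tissue, the RNA or the library was not tested.

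**Figure D4:**
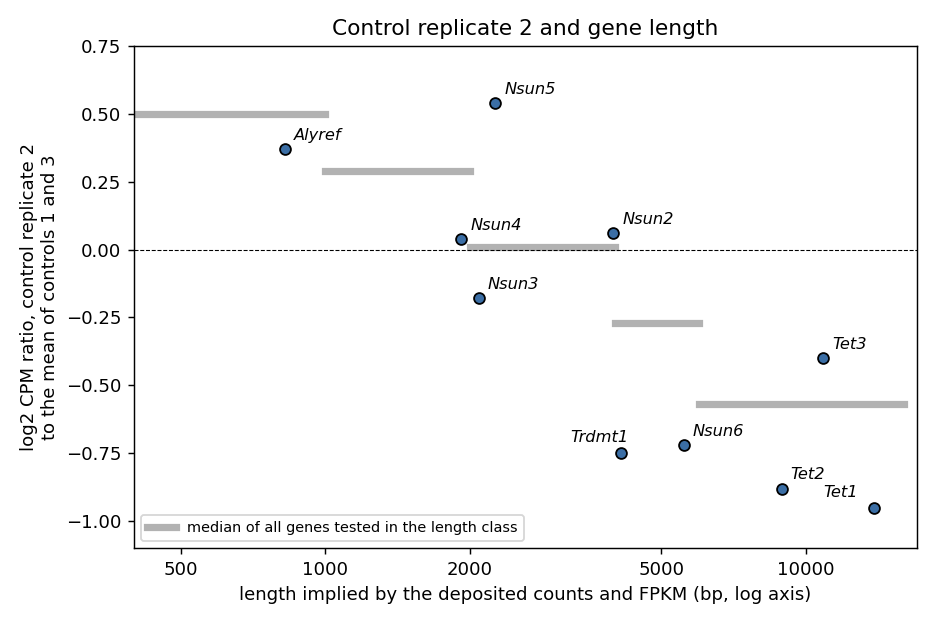
Log2 ratio of the CPM in control replicate 2 to the mean of control replicates 1 and 3 (y axis) against the length implied by the deposited counts and FPKM (x axis, logarithmic), for the 10 genes (points) and as the median of all genes tested in 5 length classes (grey bars). The 5 genes over 4000 bp lie at -0.40 or lower, and Alyref and Nsun5 lie at 0.37 and 0.54.

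A further 47 genes linked to m5C or to the partners of these proteins were examined, and all 47 were tested. Of these, 0 passed the adjusted threshold and 3 had an unadjusted p under 0.05 by edgeR's quasi-likelihood test (6.62% of all genes tested did). Other m5C enzymes and partners comprised 6 genes with 0 past either threshold and a median log2 fold change of -0.16. Nop2, the nucleolar writer of the same family, was at 44.2 ± 7.99 CPM in control and 38.6 ± 2.39 CPM in cKO (SD, n = 3 each; log2 fold change -0.20, adjusted p = 0.854). Nsun7, a further family member, was at 10.2 ± 1.92 and 10.9 ± 2.07 CPM (0.11, adjusted p = 0.932). Alkbh1, a dioxygenase that acts on m5C in tRNA, was at 19.6 ± 1.81 and 19.2 ± 0.473 CPM (-0.04, adjusted p = 0.966). Qtrt1 and Qtrt2, which insert the queuosine base into tRNA, had log2 fold changes of -0.24 and -0.26 (adjusted p = 0.854 and 0.806).

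The list of other reported m5C readers and Ybx1 partners held 8 genes, of which 1 had an unadjusted p under 0.05. This was Pabpc1, the cytoplasmic poly(A)-binding protein reported to act with Ybx1 on methylated mRNAs. Pabpc1 was at 376, 376 and 362 CPM in control and at 271, 290 and 275 CPM in cKO replicates. The 3 cKO values were all lower than the 3 control values, which held for 6.93% of all genes tested. Control replicate 2 was at 102% of the mean of the other 2 controls. The log2 fold change was -0.41 (95% interval -0.64 to -0.19, unadjusted p = 0.00247, adjusted p = 0.380 by edgeR's quasi-likelihood test). It passed the adjusted threshold without control replicate 2 (log2 fold change -0.41, adjusted p = 0.0414) and in 6 of the 17 alternatives in all, where the adjusted p ranged from 0.0075 with DESeq2 to 0.9999. Among the remaining readers, the log2 fold changes were -0.02 for Ybx2 and -0.18 for Ybx3, the paralogs of Ybx1, with adjusted p-values of 0.989 and 0.862. They were -0.07 for Srsf2, a splicing factor, 0.18 for Fmr1, an RNA-binding protein of neurons, -0.08 for Lin28b and -0.13 for Ythdf2, and -0.06 for Elavl1, a stabiliser of mRNAs, with adjusted p-values from 0.859 to 0.967 for these 5 genes.

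The mRNA export list, the TREX complex around Alyref and its receptors, held 16 genes. None of them passed either threshold by edgeR's quasi-likelihood test, and the median log2 fold change was -0.05. The gene with the smallest p was Chtop, an export adaptor like Alyref, at 285 ± 7.09 CPM in control and 255 ± 5.13 CPM in cKO (SD, n = 3 each; log2 fold change -0.16, adjusted p = 0.819). The list for DNA 5-methylcytosine and Tet partners held 17 genes, 2 of them higher in cKO with an unadjusted p under 0.05 and 0 lower. These were Dnmt3a, the de novo DNA methyltransferase of neurons, and Cxxc4, a binding partner of Tet2. For both, every cKO library lay above every control library in CPM, which held for 7.35% of all genes tested. Dnmt3a was at 148, 115 and 133 CPM in control and at 185, 174 and 164 CPM in cKO replicates, with no overlap (log2 fold change 0.40, 95% interval 0.12 to 0.67, unadjusted p = 0.00932, adjusted p = 0.512). Cxxc4 was at 98.1, 73.4 and 85.3 CPM in control and at 134, 109 and 105 CPM in cKO replicates, also with no overlap (0.44, 0.11 to 0.76, unadjusted p = 0.0136, adjusted p = 0.567). Without control replicate 2, which was the lowest library for both of these long genes, the log2 fold changes were 0.31 and 0.34 (adjusted p = 0.169 and 0.266). Across the 47 genes, 7 had an unadjusted p under 0.05 without that library and 1, Pabpc1, an adjusted p under 0.05, when 12.1% and 0.891% of all genes tested did.

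**Figure D5:**
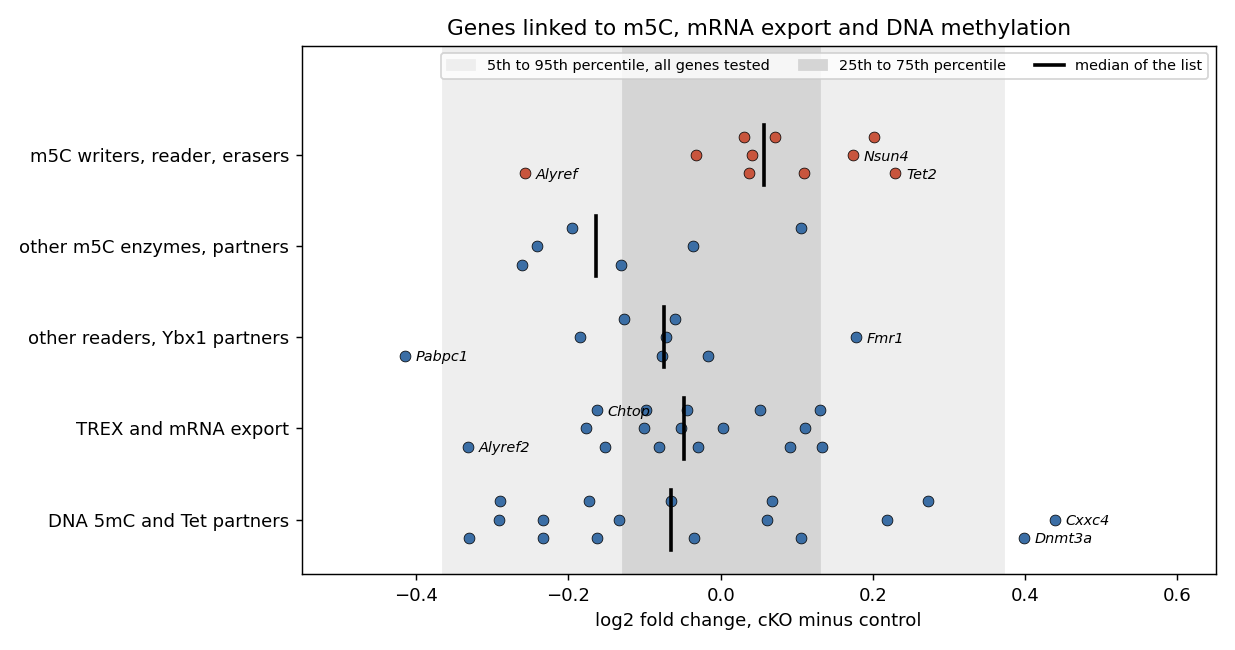
Log2 fold change between cKO and control (x axis) of each gene in the 10 m5C genes (red) and 4 lists of linked genes (blue), with the list median (black bar) and the 25th to 75th and 5th to 95th percentiles of all genes tested (grey). The 10 genes lie within the 5th to 95th percentile range, -0.364 to 0.372, and Pabpc1, Dnmt3a and Cxxc4 lie outside it.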

How the data were processed

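The deposited table holds estimated counts, TPM and FPKM per gene and library, and the authors' group means, which were not used. Per the labels, GRCm38 (mm10) was the build, and the submitters' processing notes name HISAT2 2.2.1, Bowtie2 2.4.5 and RSEM 1.3.1 without their roles. The estimated counts deposited by the authors are not normalized between libraries and 89.4% are whole (tolerance 0.001). The deposited TPM values divide by length and sum to the same total in each library. FPKM as deposited divides by length and by the reads of the library. Annotation and strandedness are not given in the sources used here.

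Counts were rounded, filtered with filterByExpr, scaled by TMM and tested in R 4.3.3 by the quasi-likelihood method of edgeR 4.0.16, with p-values adjusted by Benjamini-Hochberg over all 13570 genes tested. Standard errors were the fold change over the square root of F, and 95% intervals used the t quantile at 8.98 degrees of freedom. Alternatives were RLE scaling, DESeq2 1.42.0, no filter, CPM above 1 in 3 libraries, the replicate number as a block, a smooth length and GC correction (mgcv 1.9.3, GENCODE M21 lengths, 96.7% of genes) with and without the block, limma 3.58.1 on log2(TPM + 0.5), X and Y genes left out, and each library left out. The correction without control replicate 2, the correction on implied lengths, and the count of linked genes without control replicate 2 were added after seeing the data. Implied length is the estimated count over FPKM and library total. Positions are from GENCODE M21 on GRCm38. The main test was tried on counts simulated with a common biological coefficient of variation of 0.147 and without the length pattern of control replicate 2. There 38.1% of 1.5-fold, 89.9% of 2-fold and 98.5% of 4-fold changes passed the adjusted threshold. How many it would find in the real libraries was not tested. Replicate libraries of a group differed by 3.52 to 65.4 in chi-square per degree of freedom, so none was a duplicate. The 95% intervals come from the quasi-likelihood fit, which includes variation between libraries as well as counting error. The floor of 3 counts reflects sequencing depth only.

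The 10 genes and all lists were chosen with earlier results of these data known. Genes named were the 10 genes, Ybx1, both lists of other m5C enzymes and readers, the genes of the export and DNA methylation lists with an unadjusted p under 0.05 or else the smallest p, and genes sharing exonic bases with 1 of the 10, with values where the table lists them. Slc17a7, Tubb3, Neurod6, Col1a1, Col1a2, Dcn and Lum were named after their values were seen.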

Additional observations from a re-analysis of the deposited data

How the results depend on the processing

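None of the 10 genes passed the adjusted threshold in any of the 17 alternatives, and of 170 log2 fold changes 150 kept the direction and 20 did not. The causes of these changes were not tested. Nsun3, Nsun4 and Alyref kept their direction in all 17. The lowest adjusted p was 0.242, for Alyref under the replicate block plus correction for length and GC. With 1 library left out, the log2 fold changes ranged from -0.02 to 0.13 for Nsun2, -0.065 to 0.24 for Nsun5, -0.13 to 0.27 for Nsun6, -0.24 to 0.21 for Trdmt1, -0.052 to 0.39 for Tet1, -0.0099 to 0.42 for Tet2 and -0.092 to 0.12 for Tet3. The other reversals were 0.0018 (replicate block) and 0.058 (limma on TPM) for Trdmt1, -0.066 (length and GC correction, both alone and under the replicate block), -0.051 (that correction without control replicate 2) and -0.10 (correction on implied lengths) for Tet3, -0.13 and -0.015 for Nsun6 in the last 2 of these, and -0.0056 for Nsun2 in the last. Ybx1 passed throughout.

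The number of genes past the adjusted threshold was 10 in the main comparison, 93 with DESeq2, 148 with the length and GC correction, 140 with that and the replicate block, 233 with it but without control replicate 2, 238 on implied lengths and 6 without X and Y genes. At an unadjusted p under 0.05 it was 899, then 1735, 1933, 2029 and 1957 in the 4 corrected fits and 1391 by limma on TPM. With 1 library left out, these numbers ranged from 8 to 122 and from 490 to 1914. The 47 linked genes gave 1 and 7 without control replicate 2, against 0 and 3. Whether the replicate numbers mark paired libraries is not given by the labels. Deviations of same-numbered libraries correlated weakly, by 0.088, 0.061 and 0.23, and all 6 libraries correlated best with their own number. As a block the replicate numbers gave 11 genes and 1034 in place of 10 and 899.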
